A study of Rattus norvegicus with 10 samples.

Results

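Acute phase and complement genes were compared between bone cells grown from the calvaria, which roofs the skull, and bone cells grown from the ulna of the forelimb. A list of 41 genes was taken, 23 of the complement system and 18 other acute phase genes, and 31 of them had a probe with their name on the Illumina rat BeadChip, 16 complement genes and 15 acute phase genes, out of 13336 named genes. Each of the 31 had 1 probe, so no choice between probes was needed. The other 10 genes (C3, C4a, C5, C7, C5ar1, Cd59, Masp1, Ptx3, Fga and Cebpd) were not analysed here.

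The arrays held 5 skull bone-derived cultures (S-Bdc, calvarial osteoblasts per the labels) and 5 cultures derived from limb bone (L-Bdc, ulnar osteoblasts per the labels), and each of 5 male CD rats gave a culture of both kinds. The cells came from the third collagenase digest of bones that the study describes as adult, were grown in medium with newborn calf serum and were taken at passage 3 and 95% confluence, with no treatment in either group. Such digests can hold other cells of bone besides osteoblasts, and in RNA from whole cultures a change in the number of cells of a type and a change in RNA per cell cannot be told apart. The osteoblast label was set beside 12 measured markers. Of these, 11 were above the background range on at least 1 array and 10 on at least 3 arrays. The summed signal of the markers was lower in every S-Bdc culture than in every L-Bdc culture. The collagen gene Col1a2 averaged 11570 ± 463 units in S-Bdc and 11720 ± 1010 units in L-Bdc (SD, n = 5 cultures each), and the matrix protein gene Sparc averaged 6956 ± 1116 and 6282 ± 899 units in S-Bdc and L-Bdc. Sp7, osterix, a transcription factor that osteoblasts need to form, and Bglap, osteocalcin, a gene of mature osteoblasts, were above background on only 3 and 4 of the 10 arrays.

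The acute phase is the change in plasma proteins that follows injury or infection. It is driven by interleukin 6, interleukin 1 and related cytokines, and the liver is its main organ. Complement is a chain of plasma proteases that marks and lyses microbes. Its classical branch starts with C1q, C1r and C1s, its alternative branch uses factors B and D, both end in the lytic terminal proteins, and regulators on cells and in plasma hold it in check.

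The 5 acute phase members that passed the test were higher in S-Bdc, and of the 5 complement members that passed, 3 were higher and 2 lower. Whether the 2 groups of genes differ in this was not tested. A2m, a broad protease inhibitor, and Lbp, the plasma protein that carries lipopolysaccharide to its receptors, had the largest differences of the members, 3.00 ± 0.17 and 2.30 ± 0.13 on the log2 scale (S-Bdc minus L-Bdc, ± SE over 5 pairs, as in every later log2 difference). The complement regulators Serping1 and Clu were lower in S-Bdc, with differences of -0.91 ± 0.13 and -0.996 ± 0.144. In a limma fit over all probes with the rat as a term, 10 of the 31 members passed a Benjamini-Hochberg adjusted p of 0.05, against 9.1% of all 22517 probes. Of the 12736 probes above background on at least 3 arrays, 2043 passed. Of the 31, 8 were higher in S-Bdc, against 4.43% of all probes, and 2 were lower, against 4.68%. Complement gave 5 of 16 (3 higher, 2 lower) and the other acute phase genes gave 5 of 15 (all higher). The members were listed with earlier results of these arrays known, so these shares are a description. Over the whole array, 997 probes were called higher and 1053 lower, while with no normalisation between arrays 513 were called higher and 357 lower.

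Signals are given below in the deposited processed units, in which values up to 8.514 were taken as the background range, and differences on the log2 scale of normalised signal with an offset of 50, which understates the change of dim probes. By this limit 23 of the 31 members were above background on at least 3 of the 10 arrays, 12 complement and 11 acute phase genes, and the 10 called members were above it on all 10. The median difference was 0.03 for complement and 0.08 for acute phase members, against -0.00147 for all probes. Normalised signals of S-Bdc and L-Bdc did not overlap for 6 of the 31 members (C1r, C2, Serping1, A2m, Lbp and Lcn2), against 7.0% of all probes.

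**Figure D1:**
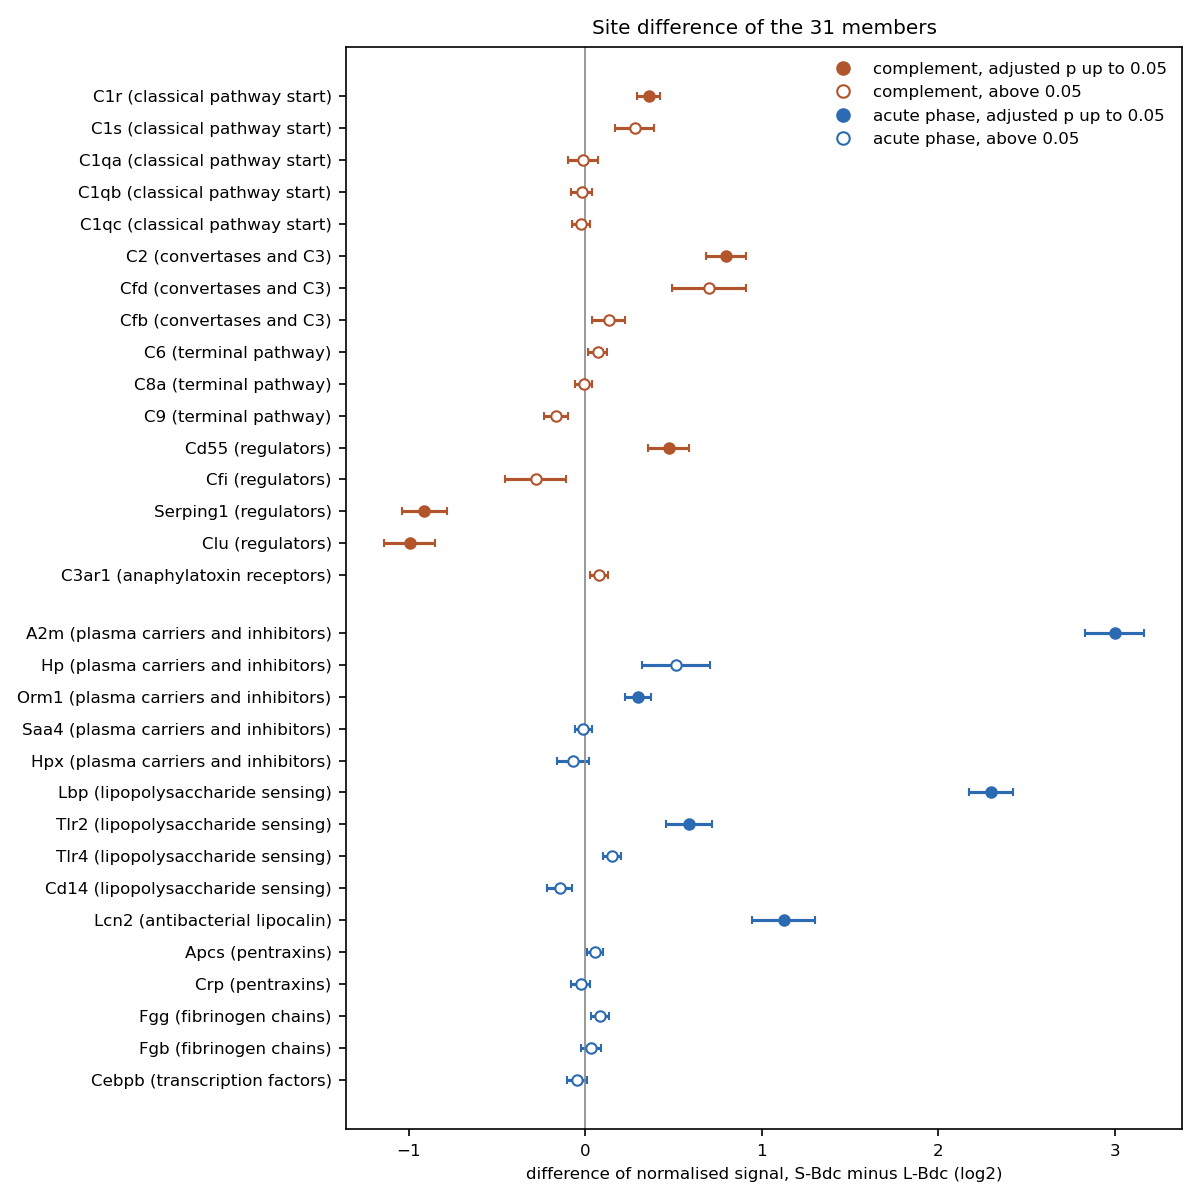
Difference of normalised signal (log2, S-Bdc minus L-Bdc) for the 31 measured members by role, complement above and acute phase below, where points are limma estimates, bars are SE (n = 5 pairs) and filled points passed an adjusted p of 0.05. A2m and Lbp stand far to the right, at 3.00 and 2.30, and Serping1 and Clu to the left, at -0.91 and -0.996.

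Of the 10 called members, 5 had a promoter window in the RefSeq table of assembly GRCr8 (C1r, Cd55, Lcn2, Orm1 and Tlr2). The others, A2m, Lbp, C2, Serping1 and Clu, had no window there, so their promoters were not searched. The 5 windows are described because STAT3, C/EBP and NF-kB proteins are the textbook factors of acute phase genes. The windows run to 50 bases past the start site and were searched on both strands for TTCNNNGAA (STAT), TTGCNNNAA and TTNNGCAA (C/EBP) and an NF-kB pattern of GGGA, then any 4 bases, then CC. The 250 bases before the start site are printed for the 3 that held a C/EBP match, with the letters of any match in capitals. C1r lies on chr4:159098763-159099012 (plus strand), Orm1 on chr5:81788259-81788508 (plus strand) and Lcn2 on chr3:36081781-36082030 (minus strand).
C1r: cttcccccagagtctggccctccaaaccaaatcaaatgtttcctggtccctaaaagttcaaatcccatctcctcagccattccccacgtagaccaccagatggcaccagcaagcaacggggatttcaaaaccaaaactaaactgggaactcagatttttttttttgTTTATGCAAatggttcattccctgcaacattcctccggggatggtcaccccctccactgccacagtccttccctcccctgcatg
Orm1: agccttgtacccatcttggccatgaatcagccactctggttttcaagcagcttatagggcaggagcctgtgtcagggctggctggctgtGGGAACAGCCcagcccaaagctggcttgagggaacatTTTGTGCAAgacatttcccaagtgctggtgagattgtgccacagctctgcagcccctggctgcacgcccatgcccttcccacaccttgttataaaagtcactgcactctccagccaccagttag
Lcn2: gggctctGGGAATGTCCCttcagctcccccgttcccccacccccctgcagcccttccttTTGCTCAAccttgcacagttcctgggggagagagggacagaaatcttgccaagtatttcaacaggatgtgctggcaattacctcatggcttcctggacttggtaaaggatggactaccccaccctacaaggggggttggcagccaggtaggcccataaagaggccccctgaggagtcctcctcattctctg

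The capitals of C1r and of Orm1 near the start site, TTTATGCAA 84 bases before it and TTTGTGCAA 124 bases before it, match both C/EBP patterns, which overlap there. Orm1 also held an NF-kB match, GGGAACAGCC, 161 bases before its start. Lcn2 held the C/EBP match TTGCTCAA 191 bases before its start, and the NF-kB pattern matched there on both strands, 243 and 242 bases before it. Tlr2 held 2 NF-kB matches and Cd55 held 1, and neither held a C/EBP match. The STAT pattern was in 0 of the 5 windows and in 3 of the 20 windows of measured members, against 8.87% of all 33469 windows. TTGCNNNAA was in 2 of the 5, 6 of the 20 and 9.60% of all windows, TTNNGCAA was in 3, 7 and 10.6%, and the NF-kB pattern was in 4, 7 and 19.3%. A match says only that these letters stand in the window.

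Of the 5 genes that start the classical branch, C1r was higher in S-Bdc, and the C1q chain genes stood near background. C1r, the protease that C1q activates first, measured 6874, 6016, 6594, 7880 and 7468 units in S-Bdc of rats 1 to 5, against 5516, 5289, 5649, 5490 and 5090 units in L-Bdc. Every S-Bdc culture was above every L-Bdc culture, with a difference of 0.36 ± 0.07 (limma, adjusted p = 0.00808). C1s, the protease cleaved by C1r and its direct neighbour on chromosome 4 of GRCr8, averaged 4561 ± 863 units in S-Bdc and 3732 ± 599 units in L-Bdc, with overlapping cultures and a difference of 0.28 ± 0.11 that did not pass (adjusted p = 0.19) and was 0.13 without rat 1. C1qa averaged 8.73 ± 5.81 units in S-Bdc and 9.57 ± 6.96 units in L-Bdc, C1qb was above background on 1 array and C1qc on none.

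C2, which with C4 forms the convertase of the classical branch, measured 2259, 2899, 2603, 3264 and 3753 units in S-Bdc, against 1140, 1919, 2134, 1497 and 1738 units in L-Bdc. The sites did not overlap, although S-Bdc of rat 1 lay close to L-Bdc of rat 3, and the difference was 0.80 ± 0.11, or 1.74-fold (adjusted p = 0.00194). Cfb, the counterpart of C2 in the alternative branch and its direct neighbour on chromosome 20 of GRCr8, averaged 83.3 ± 34.3 units in S-Bdc and 69.8 ± 27.8 units in L-Bdc (0.13 ± 0.09, adjusted p = 0.556). Whether C2 and Cfb differ in their site difference was not tested.

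Cfd, the protease factor D that cleaves factor B and is also known as adipsin for its high expression in fat, measured 117, 94.2, 176, 110 and 238 units in S-Bdc, against 42.2, 47.9, 49.6, 161 and 44.97 units in L-Bdc. The L-Bdc culture of rat 4 stood apart from the other L-Bdc cultures and exceeded its own S-Bdc partner, while the other 4 pairs were higher in S-Bdc. Cfd did not pass over all 5 pairs (0.70 ± 0.21, adjusted p = 0.0761) and passed without rat 4 (0.96 ± 0.14, adjusted p = 0.00683). Fabp4, a fatty acid carrier of adipocytes, was 103 units in the same L-Bdc culture of rat 4, against 24.3 to 54.7 in the other L-Bdc cultures. In S-Bdc it ran from 27.8 to 104 units, so that the value of this culture lay within the S-Bdc range. Of 2 other adipocyte markers, Lpl was also highest among L-Bdc cultures in rat 4, at 4786 units. Pparg was highest there in rat 1, at 17.4 units, with 12.8 units in rat 4. The fat hormone genes Adipoq and Lep were above background on no array. The part of adipocytes in the Cfd values was not tested.

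The 3 measured terminal members were near background. C9, which forms the lytic pore, averaged 9.18 ± 3.18 units in S-Bdc and 18.1 ± 8.35 units in L-Bdc (-0.17 ± 0.07, adjusted p = 0.21). C6 averaged 12.1 ± 5.79 units in S-Bdc and 8.53 ± 4.14 units in L-Bdc (0.07 ± 0.05, adjusted p = 0.593), and C8a was above background on no array. C8g, a terminal gene from the wider list of complement genes, was above background on all 10 arrays. It averaged 37.5 ± 5.33 units in S-Bdc and 29.8 ± 5.25 units in L-Bdc and did not pass. C3ar1, the receptor for the C3a fragment, was above background on 1 array.

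Regulators of complement held the genes that were lower in S-Bdc. Serping1, the C1 inhibitor that blocks C1r and C1s, measured 562, 273, 319, 351 and 410 units in S-Bdc, against 647, 665, 780, 856 and 855 units in L-Bdc. No cultures of the sites overlapped, and rat 1 had the smallest gap. The adjusted p of Serping1 was 0.00189, with L-Bdc 1.88-fold above S-Bdc.

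Clu, clusterin, a secreted chaperone that keeps the terminal proteins out of membranes, measured 1030, 832, 1092, 1526 and 992 units in S-Bdc, against 3503, 1426, 1686, 2502 and 2430 units in L-Bdc. Clu was lower in S-Bdc in all 5 pairs, although S-Bdc of rat 4 was above L-Bdc of rat 2 (adjusted p = 0.00213). Cd55, the membrane protein that speeds the decay of convertases, moved the other way, with 926, 839, 1390, 1427 and 1178 units in S-Bdc against 763, 870, 722, 881 and 752 units in L-Bdc. It was higher in S-Bdc in 4 of 5 pairs, not in rat 2, with a difference of 0.47 ± 0.12 (adjusted p = 0.0327). Cfi, the protease that cleaves C3b and C4b, averaged 132 ± 51.9 units in S-Bdc and 174 ± 55.3 units in L-Bdc (-0.28 ± 0.17, adjusted p = 0.473).

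Among plasma proteins of the acute phase, A2m is the classical strongly induced protein of the rat liver. A2m measured 902, 1365, 555, 834 and 520 units in S-Bdc, against 41.5, 64.7, 38.7, 21.3 and 61.8 units in L-Bdc. The lowest S-Bdc culture lay far above the highest L-Bdc culture, and the differences of the pairs ran from 2.24 to 3.50 (adjusted p = 1.57e-05). The mean of the deposited units was 18.3-fold higher in S-Bdc, a ratio without the offset.

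Orm1, the carrier protein orosomucoid, measured 36.2, 26.4, 43.9, 46.5 and 57.2 units in S-Bdc, against 16.6, 21.2, 32.2, 26.7 and 16.2 units in L-Bdc. It was higher in S-Bdc in every pair (0.30 ± 0.07, adjusted p = 0.0329), and the sites overlapped through S-Bdc of rat 2. The mean of the deposited units of Orm1, without the offset, was 1.86-fold higher in S-Bdc. Hp, haptoglobin, which binds free haemoglobin, averaged 342 ± 98.7 units in S-Bdc and 234 ± 130 units in L-Bdc and was higher in 3 of 5 pairs (0.51 ± 0.19, adjusted p = 0.169). Its highest L-Bdc culture was again that of rat 4, at 444 units. Hpx, hemopexin, which binds haem, averaged 40.99 ± 12.6 units in S-Bdc and 46.0 ± 10.9 units in L-Bdc (-0.07 ± 0.09, adjusted p = 0.792). Saa4 was above background on no array.

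Of the genes that sense lipopolysaccharide, Lbp measured 2381, 2470, 1905, 2019 and 2907 units in S-Bdc, against 389, 710, 355, 375 and 354 units in L-Bdc. The sites lay far apart, the L-Bdc culture of rat 2 was the closest to S-Bdc, and Lbp was 4.91-fold higher in S-Bdc (adjusted p = 1.57e-05). Tlr2, a receptor for bacterial lipoproteins, measured 357, 220, 301, 361 and 263 units in S-Bdc, against 129, 154, 279, 167 and 175 units in L-Bdc. Every pair was higher in S-Bdc, but rat 3 hardly so, and the sites overlapped (0.59 ± 0.13, adjusted p = 0.0195).

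The receptor genes to which Lbp hands its ligand did not pass. Cd14, the co-receptor, averaged 348 ± 47.0 units in S-Bdc and 397 ± 96.7 units in L-Bdc (-0.15 ± 0.07, adjusted p = 0.333). Tlr4, the signalling receptor for lipopolysaccharide, averaged 26.7 ± 6.96 units in S-Bdc and 17.9 ± 4.56 units in L-Bdc and was higher in all 5 pairs (0.15 ± 0.05, adjusted p = 0.129). A wider list held 15 other measured genes, of Toll-like receptors in general, their signalling and the protein family of Lbp. Of these, 1 was higher in S-Bdc and 0 were lower, or 6.67% against 9.1% of all probes. The gene was Irak3, a kinase gene and a brake on Toll-like receptor signalling (0.46 ± 0.08, adjusted p = 0.00831).

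Lcn2, lipocalin 2, which withholds iron from bacteria, measured 5381, 4002, 5321, 6273 and 6852 units in S-Bdc, against 1600, 2907, 3315, 1808 and 3339 units in L-Bdc. All S-Bdc cultures were above all L-Bdc cultures, and rats 1 and 4 had the widest gaps (1.13 ± 0.18, or 2.18-fold, adjusted p = 0.00358). Crp, the pentraxin C-reactive protein, averaged 16.1 ± 2.24 units in S-Bdc and 17.6 ± 3.50 units in L-Bdc (-0.03 ± 0.05, adjusted p = 0.884). Apcs and the fibrinogen chain genes Fgb and Fgg were above background on no array. Cebpb, which encodes a C/EBP factor of acute phase genes, averaged 4086 ± 332 units in S-Bdc and 4230 ± 378 units in L-Bdc (-0.05 ± 0.06, adjusted p = 0.766).

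**Figure D2:**
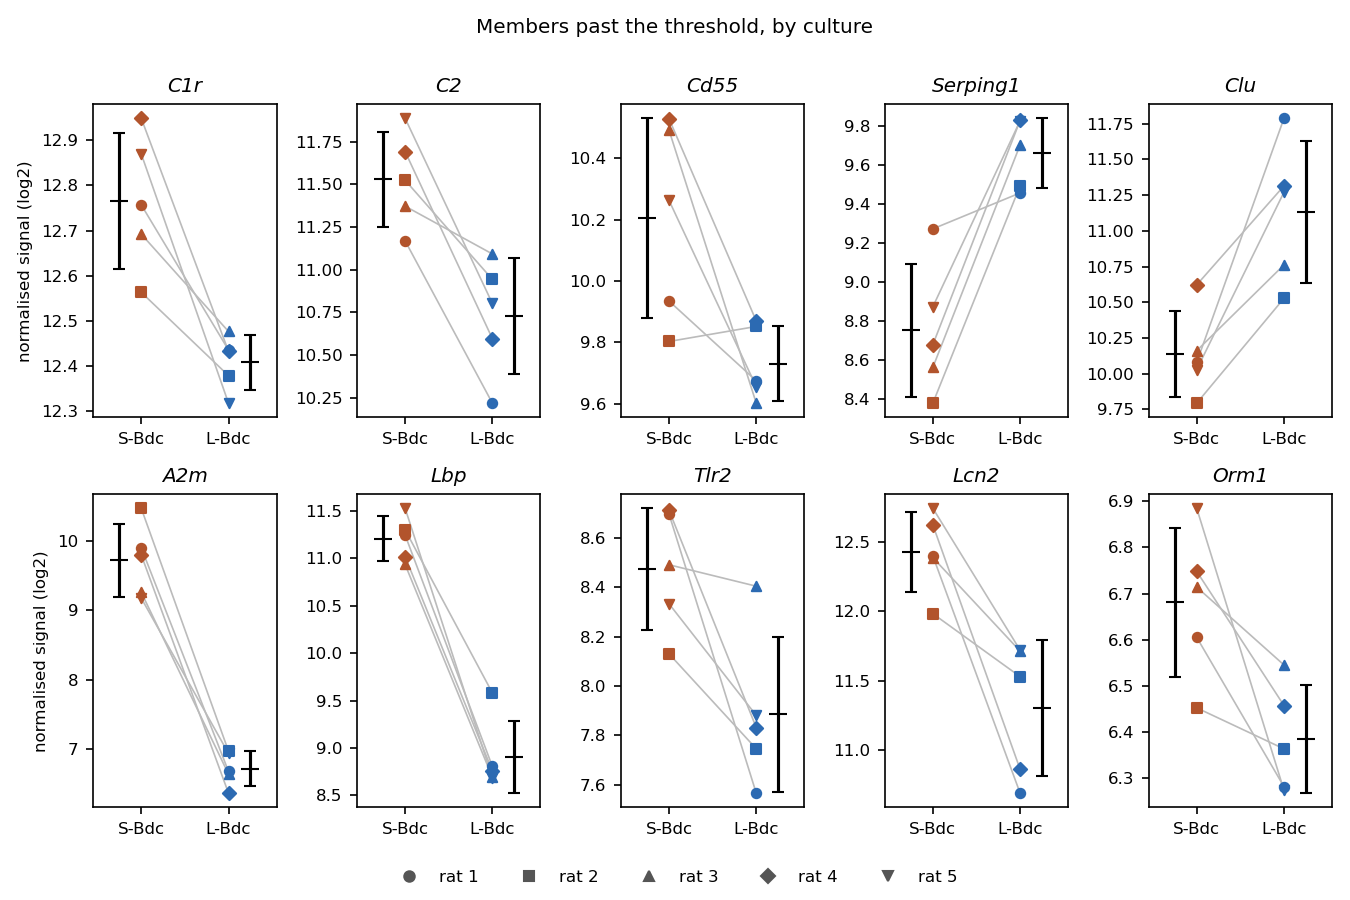
Normalised signal (log2) of the 10 members that passed an adjusted p of 0.05 in S-Bdc and L-Bdc of each rat, with lines joining cultures of a rat, and the mean with SD beside each site (n = 5). The vertical axes differ between panels, and the sites stand apart in C1r, C2, Serping1, A2m, Lbp and Lcn2 and overlap in Cd55, Clu, Tlr2 and Orm1.

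Other genes of the same pathways were counted from wider lists, also chosen with earlier results known. Of 25 other complement genes, 3 were higher in S-Bdc and 0 lower, or 12% against 9.1% of all probes. These were Cd93, once described as a C1q receptor (1.12 ± 0.11), the collectin gene Colec12 (0.39 ± 0.06) and C4b (0.55 ± 0.10, adjusted p = 0.00715), whose probe may read more than its own gene, since the C4 genes are near-identical copies. Of 27 other acute phase plasma protein genes, 4 were higher and 1 was lower in S-Bdc (18.5%). The iron carrier transferrin, Tf (2.04 ± 0.27), apolipoprotein E, Apoe (1.34 ± 0.16), and the serpin gene Serpinf1 (0.43 ± 0.09) were higher. So was, by little, the coagulation factor gene F5 (0.19 ± 0.05, named after its value was seen). Tissue factor, F3, was lower (-0.43 ± 0.07) and is a membrane protein, although it was counted in this list.

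The cytokine genes Il6, Il1a and Il1b were lower in S-Bdc. Of 34 measured cytokine, receptor and transcription factor genes, 3 were higher (Tnfrsf1a, Stat5b and Osmr) and 6 lower (Il6, Il1a, Il1b, Il1rn, Fos and Nfkbiz), or 26.5% against 9.1% of all probes. Tnf, tumour necrosis factor, did not pass (-0.06 ± 0.06, adjusted p = 0.659). Il6, the main inducer of acute phase genes in liver, measured 278, 253, 505, 447 and 441 units in S-Bdc, against 867, 918, 860, 990 and 931 units in L-Bdc. Every S-Bdc culture was below every L-Bdc culture (-1.17 ± 0.12, adjusted p = 0.000311). Any link of Il6 to the differences of the members was not tested.

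Il1a, interleukin 1 alpha, measured 28.8, 3.43, 54.4, 34.9 and 48.5 units in S-Bdc, against 78.4, 53.0, 107, 87.3 and 66.8 units in L-Bdc (-0.57 ± 0.08, adjusted p = 0.00159). Each pair was lower in S-Bdc, as was that of Il1rn, the natural antagonist of interleukin 1 (-0.60 ± 0.11, adjusted p = 0.0066). Il1b ran from 7.32 to 22.1 units in S-Bdc and from 20.8 to 43.6 units in L-Bdc (-0.35 ± 0.07, adjusted p = 0.0156). The tumour necrosis factor receptor gene Tnfrsf1a was higher in S-Bdc (0.44 ± 0.07), as was Osmr, the oncostatin M receptor (0.51 ± 0.14, adjusted p = 0.046). Osmr was higher in 4 of 5 pairs, not in rat 2, and its cultures overlapped between the sites. Stat3, the factor below interleukin 6, averaged 246 ± 12.7 units in S-Bdc and 234 ± 18.7 units in L-Bdc, and its target Socs3 averaged 24.1 ± 3.48 and 20.1 ± 3.41 units in S-Bdc and L-Bdc, neither past the threshold (adjusted p = 0.656 and 0.56). Il1b, Osmr, Stat5b, Fos, Nfkbiz, Tnf, Stat3 and Socs3 were picked after their values were seen.

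**Figure D3:**
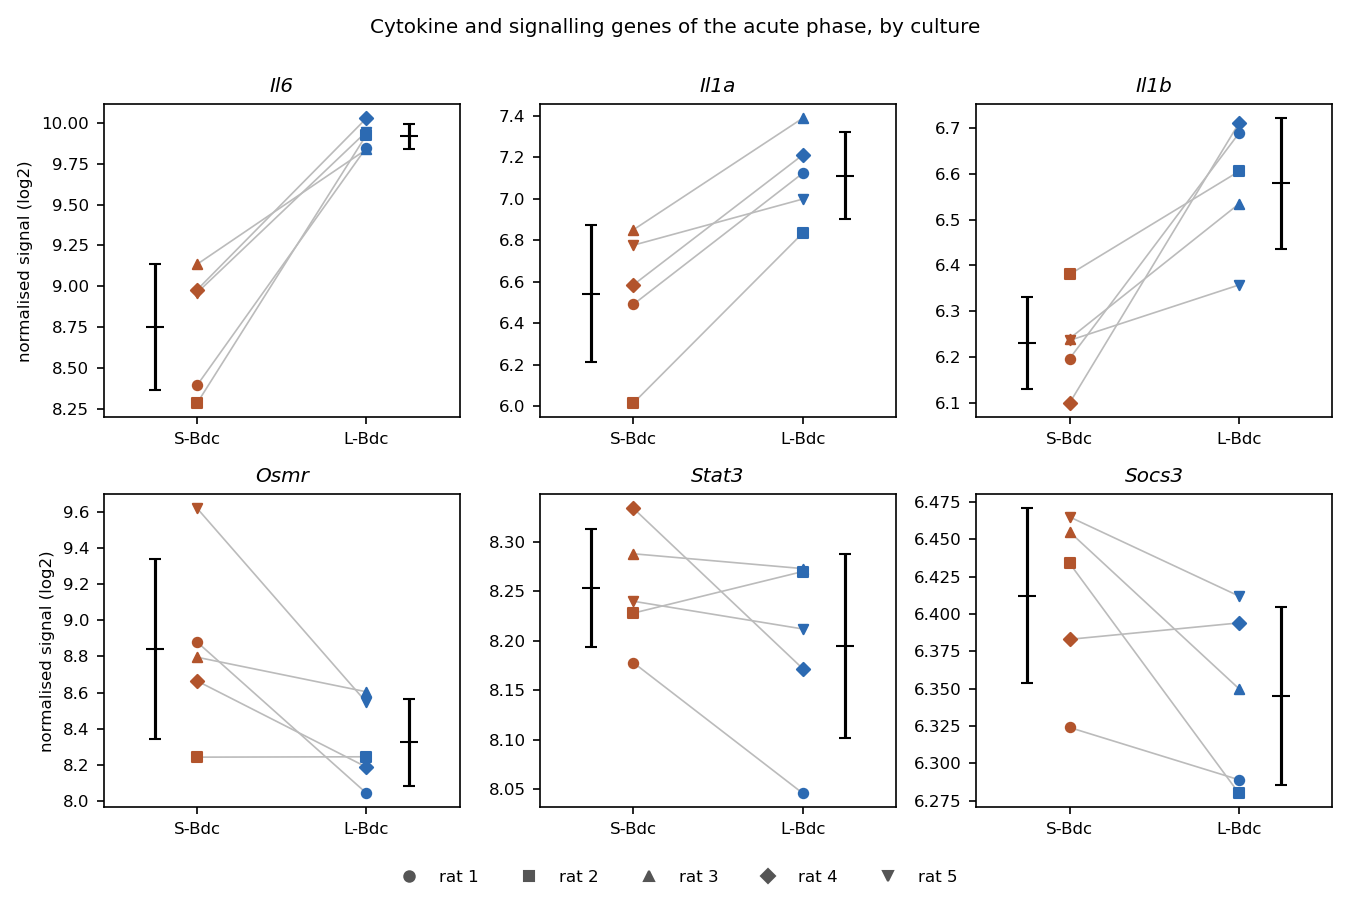
Normalised signal (log2) of the cytokine genes Il6, Il1a and Il1b, the receptor gene Osmr and the signalling genes Stat3 and Socs3 in S-Bdc and L-Bdc of each rat, with lines joining cultures of a rat and the mean with SD beside each site (n = 5). The vertical axes differ between panels, and all 5 pairs are lower in S-Bdc for Il6, Il1a and Il1b.

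Markers of cells that make complement and acute phase proteins were counted beside these results. Of 16 measured macrophage and monocyte markers, 0 passed the limma test, 9 were above background on no array (Ptprc, Adgre1 and Spi1 among them), and their summed signal ran from 37.9 to 62.3 units in S-Bdc and from 37.8 to 63.1 units in L-Bdc. Fcer1g, the brightest, averaged 28.5 ± 10.1 units in S-Bdc and 24.3 ± 6.58 units in L-Bdc. Of 10 hepatocyte markers, 0 passed, 5 were above background on no array, and the sum ran from 17.4 to 33.1 units in S-Bdc and from 17.8 to 44.1 units in L-Bdc. Of 10 neutrophil markers, 0 passed and 6 were above background on no array. Of 8 adipocyte markers, 1 was higher in S-Bdc, the lipase gene Lpl (5208 ± 719 units in S-Bdc and 3741 ± 673 units in L-Bdc, adjusted p = 0.00187), and 7 did not pass. The sum ran from 4418 to 6057 units in S-Bdc and from 2990 to 4929 units in L-Bdc. Most of that sum was Lpl, which alone ran from 4264 to 5977 units in S-Bdc and from 2941 to 4786 units in L-Bdc. Of 9 endothelial markers, 0 passed, and the sum ran from 67.8 to 115 units in S-Bdc and from 114 to 171 units in L-Bdc. Of 6 osteoclast markers, 1 was lower in S-Bdc, Mmp9 (17.2 ± 4.51 units in S-Bdc and 28.7 ± 2.58 units in L-Bdc, adjusted p = 0.0493). The sum of these markers overlapped between the sites, from 1474 to 2306 units in S-Bdc and from 1805 to 2277 units in L-Bdc. Of 12 osteoblast markers, 3 passed, with Col1a1 and Omd higher and Spp1 lower in S-Bdc. Their sum did not overlap between the sites, from 25080 to 29460 units in S-Bdc and from 30610 to 35220 units in L-Bdc. The part of these cells in the differences of the members was not tested.

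The calls were set against 14 alternative ways of processing and sample choice. A2m and Lbp passed in all 14, and the other 8 called members lost their call where the deposited intensities were raised to a floor of 16 units, a setting that called 209 probes in all. C1r, C2, Clu and Lcn2 lost it there alone and Serping1 also with no normalisation between arrays. Cd55 lost it in 7, among them each fit without rat 3, 4 or 5 (adjusted p = 0.128, 0.139 and 0.107). Orm1 lost it in 8, among them each fit without rat 1, 3, 4 or 5 (adjusted p = 0.0531, 0.0669, 0.111 and 0.0775), and Tlr2 in 4, among them that without rat 4 (adjusted p = 0.0959). The directions of the 10 called members held in all 14.

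**Figure D4:**
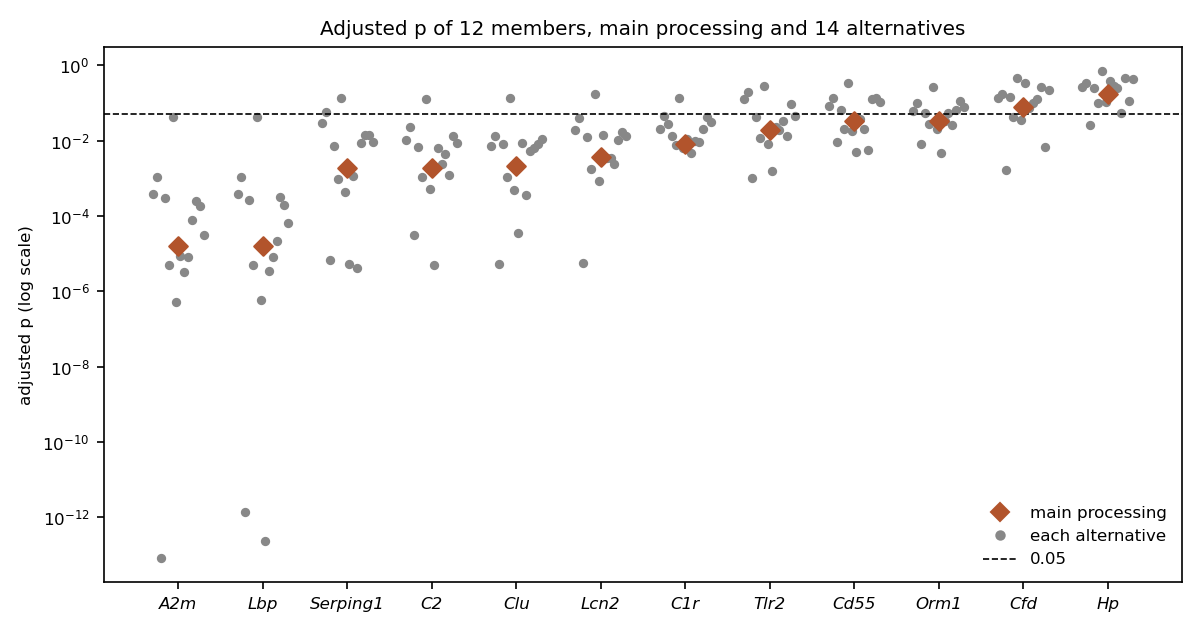
Adjusted p (log axis) of the 10 called members and of Cfd and Hp, where the diamond is the main processing, the grey points are the 14 alternatives and the dashed line is 0.05. All points of A2m and Lbp lie below the line, while each of the other genes has points on both sides of it.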

How the data were processed

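RNA of 10 cultures, 5 from each site, was hybridised to Illumina rat BeadChips, 1 array per culture, and the replicate is the rat. The deposited raw table holds linear bead intensity, which the authors exported from BeadStudio without subtracting background or normalising. The deposited value table holds processed intensities, which by their distributions the authors had background subtracted and quantile normalised. The settings of those steps are not given in the sources used here. The study's own difference score was not computed. Median raw signal ran from 40.6 to 48.1 units per array, and the number of arrays limits the precision.

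Rows of the tables carry different identifiers and were paired by their ranks on each array. Every raw row, 22517 in all, found its own value row in both directions, and this match, with the platform annotation, gives the gene names. The main fit used limma 3.58.1 in R 4.3.3. Its input was log2 of the normexp-corrected raw signal (offset 50) after quantile normalisation, its terms were rat and site (lmFit, eBayes), and the Benjamini-Hochberg adjustment ran over all probes, threshold 0.05. The limit of background, 8.514 units, is the 95th percentile of the mirrored values at or below 0 in the deposited table. It was set after the fit had been seen, enters only the counts of arrays above background and the filter on dim probes, and leaves the main fit as it is.

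Cultures of the same number come from the same rat per the labels, which name the animal. After removal of the site means, the cultures of rats 1 to 5 correlated at 0.0597, 0.211, 0.25, 0.176 and 0.129, and the calvarial culture of rat 1 correlated best with the ulnar culture of rat 5, at 0.284. In simulated data with 200 probes changed, the fit called 84% of those changed 2-fold, 32% of those changed 1.4-fold and 10 that were unchanged. A simulated log2 change of 1 in raw signal was fitted at a median of 0.625. The data gave 2050 calls, so these rates need not hold for them. The rule named all members, up to 4 called genes of each pathway list and up to 3 bright genes of a marker list. Other genes of the pathway lists, and the markers Bglap, Sp7, Omd, Spp1, Adipoq, Lep, Pparg, Ptprc, Adgre1 and Spi1, were named after their values were seen. Members, lists and alternatives were chosen with earlier results of these data known. Figures were drawn with matplotlib 3.10.9.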

Additional observations from a re-analysis of the deposited data

Results flagged for a closer look

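In 46 groups of 5 cultures (each of the 23 members above background, at each site), the highest or lowest culture was tested for a gap to the rest by Dixon's ratio, and 3 stood apart, where chance gives about 1 in 20. The L-Bdc culture of rat 4 had a normalised log2 signal of 7.79 for Cfd, with 6.79 in the nearest other L-Bdc culture, and Cfd passed the test only without this rat among the fits that left out a rat. The L-Bdc culture of rat 2 had 9.58 for Lbp, with 8.81 in the nearest, and remained below every S-Bdc culture. The L-Bdc culture of rat 1 had 7.13 for Cfi, with 7.85 in the nearest.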

How the results depend on the processing

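In place of 5 complement and 5 acute phase members and 2050 probes, 3, 3 and 870 were called with no normalisation between arrays, and 0, 2 and 209 with deposited intensities raised to a floor of 16. Median scaling called 3 acute phase members and 1268 probes. Leaving out a rat gave 3 to 5 acute phase members and 1323 to 2219 probes, lowest for acute phase members without rat 4 and for probes without rat 3. Without the replicate block (the rat term), 5 and 5 members and 1915 probes were called. The complement median of 0.03 became 0.10 without dim probes and ran from 0.00438 (without rat 1) to 0.06 as rats were left out. The acute phase median of 0.08 became 0.18 with an offset of 16, 0.30 without dim probes, 0 with the floor of 16, and ran from 0.050 (without rat 2) to 0.11. Values near 0 changed sign. C1qa turned positive without rat 3 or 4 (-0.12 to 0.039 over the 5 fits), Crp without rat 2 (-0.048 to 0.0046) and Cebpb with median scaling (0.0201) or no normalisation (0.0241). Of members that did not pass, C1s ran from 0.13 (without rat 1) to 0.35 as rats were left out, Cfb from 0.018 (without rat 1) to 0.20 and Cfi from -0.47 (without rat 1) to -0.13 (without rat 3). Cfd passed in 4 alternatives and Hp in 1. The cause of these changes was not tested. The alternative of dimmer probes gave no value, since each member had 1 probe. Small changes of members near background, such as the C1q chains, C8a, Apcs, Saa4 and fibrinogen chains, were not detectable at these signals.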

Other observations

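Of the 8 members higher in S-Bdc, 6 (C1r, C2, Lbp, Lcn2, Orm1 and Tlr2) had their smallest differences in rats 2 and 3, against 14.6% of the 997 probes called higher in S-Bdc. This was seen in the values first and is a description, since the 8 members share the same 10 cultures. Cd59b, which the reference table also lists as Cd59, lay outside the rule for members and was looked up afterwards. It averaged 231 ± 28.1 units in S-Bdc and 258 ± 46.8 units in L-Bdc (-0.12 ± 0.11, adjusted p = 0.679).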
